A study of Homo sapiens with 8 samples.

Results

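Adding trametinib to panobinostat was examined by setting 2 RNA sequencing libraries of cells given both drugs against 2 libraries of cells given panobinostat, 4 of the 8 libraries of the series, across all 18406 gene symbols of the table that the authors deposited. All libraries came from 92.1 cells, an established human uveal melanoma line, collected after 24 h of treatment, so the results describe 1 cultured line. The combination libraries carry a label with both drug names and a concentration of 10 nM written once, which was read here as 10 nM of each. The panobinostat libraries are labelled 10 nM, and their label also calls panobinostat a MEK inhibitor, where the drug name was followed. Both groups therefore contained panobinostat and differed by trametinib. The other 4 libraries, 2 with 10 nM trametinib and 2 with the vehicle DMSO, gave the change that trametinib made without panobinostat. The series asked, per its title, whether inhibiting histone deacetylases improves treatment with a MEK inhibitor in uveal melanoma.

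Uveal melanomas usually carry an activating mutation in GNAQ or GNA11, genes of the G alpha q class, and signal from there through protein kinase C and the exchange factor RASGRP3 to RAS, RAF, MEK and ERK. Trametinib blocks the MEK kinases, the step just above ERK. Active ERK switches on transcription factors of the ETS and AP-1 families, MYC and cyclin D1, and also its own brakes, the DUSP phosphatases and the Sprouty and SPRED proteins, so the transcripts of these genes are a common readout of ERK activity. Panobinostat inhibits histone deacetylases, the enzymes that remove acetyl groups from histones and other proteins, and so changes the transcription of many genes by itself.

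Reads recovered from the deposited values totalled 9017593 and 6897784 in the combination, against 10005164 and 10169082 with panobinostat, and between 10342369 and 16861001 in the other 4 libraries. On the log2(value + 1) scale the replicates correlated across 13320 genes at r = 0.974 in the combination and 0.982 with panobinostat, and at 0.897 with trametinib and 0.991 in vehicle. The trametinib libraries stood apart: 5362 genes were at 0 in trametinib replicate 2, against 2222 to 3743 in the other libraries, and these libraries widened the spread that every gene test below shares. Low counts were scarce in them. Of detected genes, 6.74% and 2.10% had 1 to 5 reads with trametinib, against 9.93% to 13.3% in the other groups. A value of 0 with trametinib may therefore not bound a level as it does elsewhere, and the cause was not tested. The labels do not say whether the replicates of a group were grown apart, and each p-value therefore reflects library-to-library spread that could be technical. Two-sided exact permutation of 2 against 2 libraries cannot give a p under 0.333, and the gene tests rest on the pooled spread. Melanocytic markers were present: MITF, SOX10, PMEL, MLANA, TYR and TYRP1 were detected in every library, the lowest value being 1413 (TYR, combination replicate 2). The 10 listed markers (8 tested) summed to 140709 and 141914 in the combination, against 102165 and 106395 with panobinostat. PMEL and TYRP1 made up most of that sum. Of the 8 tested markers 4 rose and 2, MITF and MLANA, fell, so the list did not move as a unit. Summed levels of the markers of other cell types also differed, with few entries tested. Among the tested entries VWF (endothelial) and 1 epithelial gene rose, 1 leukocyte gene fell and no fibroblast gene passed. The leukocyte sum with panobinostat came mostly from 1 gene, with a group mean of 1457. The 8 endothelial entries (7 in the table, 1 tested, CDH5 at 0 in all libraries) summed to 55.0 and 39.6 in the combination, against 9.17 and 5.04 with panobinostat. The 8 fibroblast entries (3 tested, THY1 at 0 throughout) summed to 1259.7 and 1328 in the combination, against 986 and 1017 with panobinostat. The 8 leukocyte entries (5 in the table, 2 tested, ITGAM at 0 throughout) summed to 1048 and 946 in the combination, against 1506 and 1571 with panobinostat, and the 8 epithelial entries (3 tested) to 66.7 and 135 in the combination, against 42.8 and 24.2 with panobinostat. The nuclear RNA MALAT1 took 11.9% and 12.2% of reads in the combination, against 8.29% and 8.78% with panobinostat. The part of these markers and of MALAT1 in the results was not tested, and in bulk RNA fewer cells of a kind and less RNA per cell cannot be told apart.

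Trametinib moved a large share of the transcriptome of panobinostat-treated cells. MYC fell, as did most tested genes of ERK output, nucleolar ribosome biogenesis, nucleotide synthesis, tRNA charging with amino acid transport, and chaperones. With 8 libraries in the fit, 14 of 31 genes of PI3K and FOXO signalling rose and 3 fell, 5 of 7 CDK inhibitors rose, and 13 of 25 pigmentation genes rose and 7 fell. Of the 13320 genes averaging 10 or more over the 8 libraries, 1451 were higher (10.9%) and 1740 lower (13.1%) in the combination than with panobinostat at a Benjamini-Hochberg adjusted p under 0.05 in limma's test, and 415 of the higher and 541 of the lower genes changed by at least 2-fold. The median log2 change over all tested genes was 0.012. The libraries of the groups did not overlap for 68.6% of tested genes. Lack of overlap in single genes below is therefore common, and the rule for the largest changes required it. These counts depend on which libraries set the spread: with only the 4 combination and panobinostat libraries 2602 genes were higher (19.5%) and 2741 lower (20.6%), and 2730 and 3018 without both trametinib libraries, a setting added after the data were seen. Leaving out single libraries gave 714 higher genes without combination replicate 2 and 2758 without trametinib replicate 2, and 929 lower genes without panobinostat replicate 1 and 2989 without trametinib replicate 2. The counts of list members below stand beside these shares of 10.9% higher and 13.1% lower over all tested genes. Each is given with its values under single-library omissions where these move it by over 1.5 times, and levels are normalised read counts on the deposited scale, each pair being replicates 1 and 2.

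**Figure D1:**
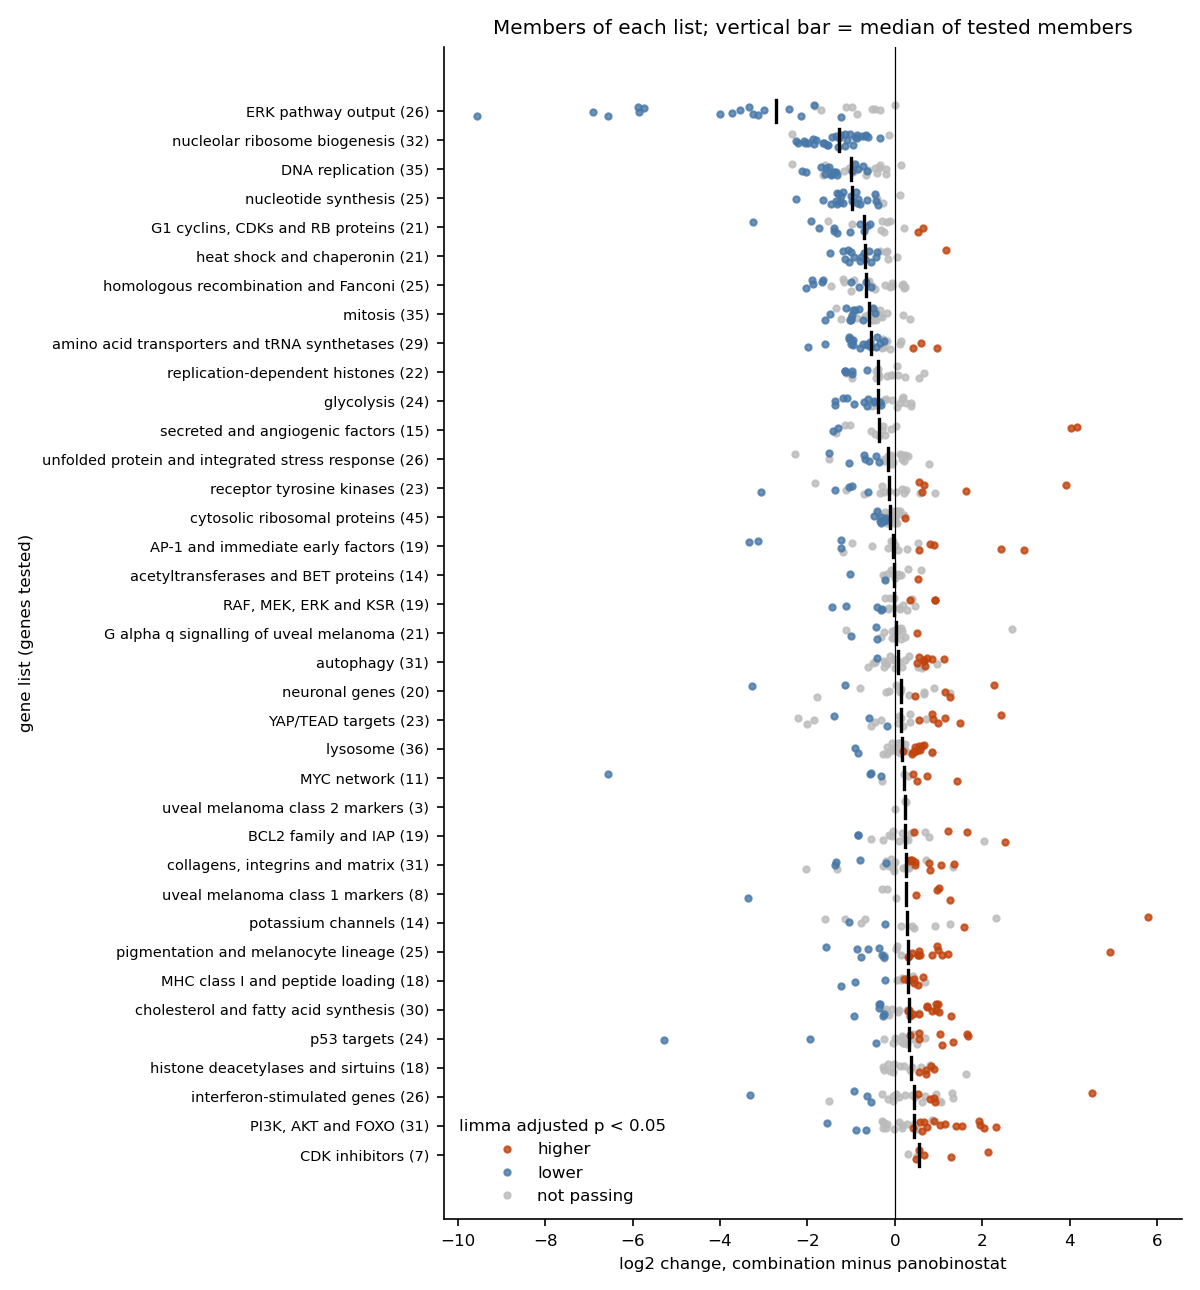
Log2 change in the combination minus panobinostat (horizontal axis) of each tested member of 37 gene lists, 1 point per gene, with lists down the page and the number tested in brackets. Orange points were higher and blue points lower (limma, adjusted p under 0.05), grey points did not pass, and black bars are list medians, from -2.71 for ERK pathway output at the top to 0.54 for CDK inhibitors at the bottom.

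ERK output fell steeply when trametinib was added to panobinostat. Of 30 genes on a list of ERK pathway output, 26 were tested, 17 fell and the other 9 did not pass, with a median log2 change of -2.71 beside 0.012 over all tested genes and 13.1% lower among them. SPRY4, an inhibitor of receptor tyrosine kinase signalling, had 4.68 and 7.61 in the combination, against 5265 and 5217 with panobinostat (log2 change ± standard error -9.55 ± 0.44, adjusted p = 1.03e-06). It was the largest fall among genes named by the rule. DUSP6, the cytoplasmic phosphatase that inactivates ERK, had 3.51 and 4.56 in the combination, against 627 and 583 with panobinostat (-6.92 ± 0.44, adjusted p = 7.43e-06). Reads of DUSP6 numbered 6 over both combination libraries, a level 152-fold lower than with panobinostat (95% counting interval 69.8 to 416). SPRY2, another Sprouty inhibitor, had 14.05 and 9.13 in the combination, against 694 and 625 with panobinostat (-5.74 ± 0.54, adjusted p = 6.48e-05). In all 3 of these negative regulators the combination libraries lay far below the panobinostat libraries.

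DUSP4, a nuclear phosphatase of ERK, kept a measurable level, with 1414 and 1617 in the combination, against 12726 and 11352 with panobinostat (-2.99 ± 0.087, adjusted p = 1.57e-07). The SPRED proteins, which hold back RAF activation, fell too: SPRED2 had 96.00 and 134 in the combination, against 1486 and 1535 with panobinostat (-3.72 ± 0.16, adjusted p = 8.39e-07), and SPRED1 changed by -1.85 ± 0.30, adjusted p = 0.00188. ETS factors of the PEA3 group, which relay ERK activity to transcription, fell together. ETV5 had 58.5 and 54.8 in the combination, against 3343 and 3455 with panobinostat (-5.88 ± 0.25, adjusted p = 7.21e-07), and ETV4 had 17.6 and 27.4 in the combination, against 1312 and 1327 with panobinostat (-5.85 ± 0.25, adjusted p = 7.53e-07). ETV1 had 52.7 and 74.5 in the combination, against 836 and 668 with panobinostat (-3.55 ± 0.30, adjusted p = 4.08e-05). For each of these ETS factors every combination library was below every panobinostat library (68.6% of all tested genes had no overlap). Cyclin D1, the CDK4 and CDK6 partner that ties growth signals to the cell cycle, had CCND1 values of 1191 and 1114 in the combination, against 11074 and 10677 with panobinostat (-3.24 ± 0.10, adjusted p = 1.57e-07). The early growth response factor EGR1 had 71.4 and 125 in the combination, against 943 and 979 with panobinostat (-3.33 ± 0.36, adjusted p = 0.000173). FOSL1, an AP-1 subunit stabilised by ERK, did not pass, with 24.6 and 50.2 in the combination, against 51.99 and 96.8 with panobinostat (-0.99 ± 1.07, adjusted p = 0.57), and EPHA2 and DUSP5 also missed the threshold at log2 changes of -1.82 and -1.68. Within the list, log2 changes ran from -9.55 for SPRY4 to 0.014 for EGR2, which had 28.1 and 10.6 in the combination, against 26.5 and 11.1 with panobinostat and overlapped between the groups.

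**Figure D2:**
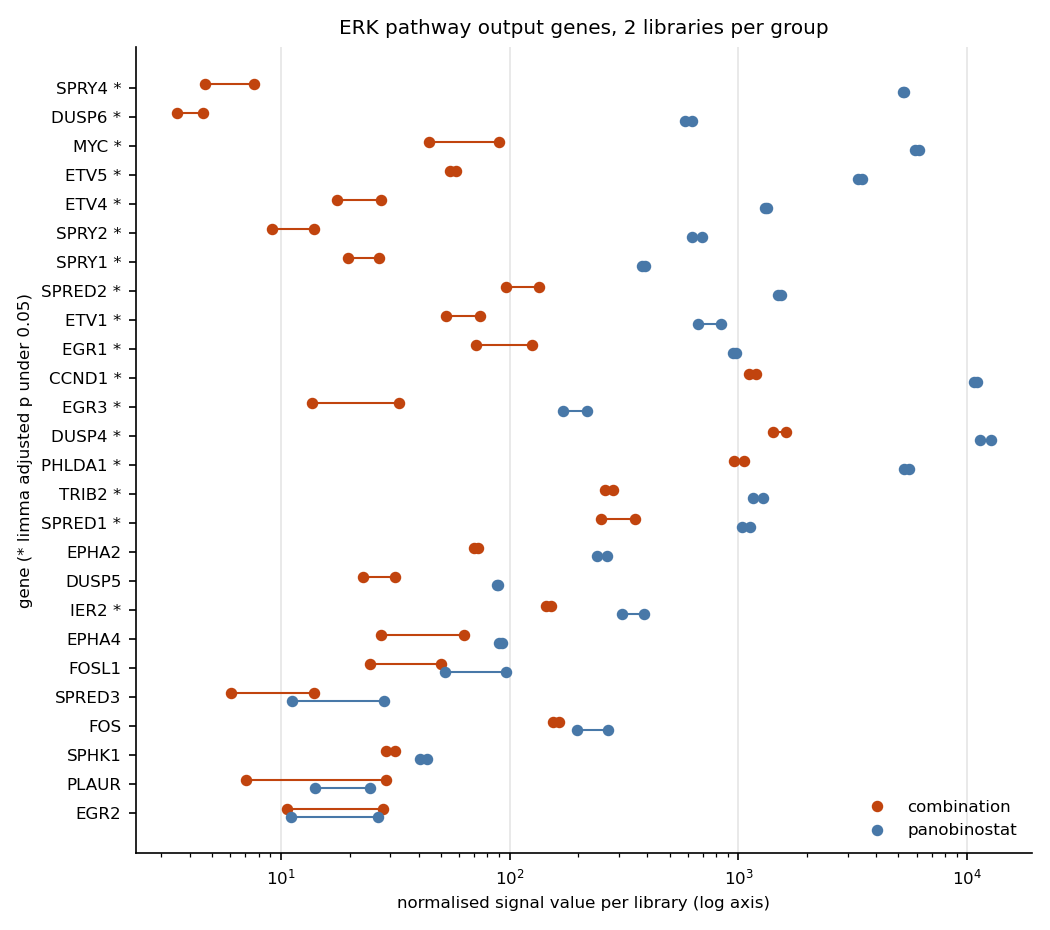
Normalised signal value per library (log axis) of the 26 tested ERK pathway output genes, down the page, with 2 points per group joined by a line, orange for the combination and blue for panobinostat, and a star at genes that passed. The orange points of SPRY4 (4.68 and 7.61) and DUSP6 (3.51 and 4.56) lie far left of the blue points (5265 and 5217, and 627 and 583), whereas those of EGR2 overlap.

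ERK output also fell without panobinostat. In the trametinib and vehicle libraries SPRY4 changed by -8.68 and CCND1 by -3.35 on the log2 scale, and DUSP4 by -3.13. The interaction, which is the change in the combination against panobinostat minus the change with trametinib against vehicle, was 0.11 ± 0.14, adjusted p = 0.618 for CCND1 and 0.14 ± 0.12, adjusted p = 0.453 for DUSP4. Neither passed. On the list of 26 tested genes 3 interactions passed, those of ETV5, DUSP6 and TRIB2, beside 19.3% of all tested genes. The 1 positive interaction became 0 without combination replicate 2, either panobinostat library or either vehicle library, 4 without trametinib replicate 2 and 9 without trametinib replicate 1, and the 2 negative ones became 4 without trametinib replicate 2 and 5 without trametinib replicate 1. ETV5 fell further beside panobinostat, since without it the gene had 126 and 249 with trametinib, against 2409.8 and 2257 in vehicle (-3.71 ± 0.25, adjusted p = 2.41e-06), and its interaction was -2.17 ± 0.35, adjusted p = 0.00265. DUSP6 was at 0 in both trametinib libraries. At a floor of 3 reads per library that is at least 190-fold below its level in vehicle. Low counts were scarce in the trametinib libraries, so this bound may not hold. The DUSP6 interaction of 2.25 ± 0.62, adjusted p = 0.0337 compares levels close to the floor. That interaction lost its call in omissions, with an adjusted p of 0.229 without vehicle replicate 1. TRIB2, a pseudokinase on the same list, fell beside panobinostat, with 283 and 262 in the combination, against 1275 and 1153 with panobinostat (-2.15 ± 0.10, adjusted p = 1.47e-06). Without panobinostat it had 734 and 771 with trametinib, against 757 and 792 in vehicle, and the interaction was -2.11 ± 0.15, adjusted p = 2.94e-05.

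Genes of the RAS to ERK chain gave calls in both directions. On the list of 19 tested RAF, MEK, ERK and KSR genes with their RAS regulators, 3 rose and 5 fell, beside 10.9% and 13.1% of all genes. The 3 rises became 6 without either trametinib library, and the 5 falls became 1 without combination replicate 1 or either panobinostat library and 2 without combination replicate 2. MAP2K1, which encodes MEK1, had 218 and 209.9 in the combination, against 274 and 229.9 with panobinostat (-0.23 ± 0.18, adjusted p = 0.413). MAP2K2, which encodes MEK2, had 1429 and 1766 in the combination, against 1472 and 1346 with panobinostat (0.17 ± 0.13, adjusted p = 0.388). Neither target of trametinib passed the test. SOS1, a RAS exchange factor, fell to 5916 and 5518 in the combination, against 12232 and 12622 with panobinostat (-1.12 ± 0.055, adjusted p = 1.47e-06). Its relative SOS2 moved the other way, with 623 and 666 in the combination, against 333 and 351 with panobinostat (0.91 ± 0.12, adjusted p = 0.000657). RASA1, a GTPase activator that switches RAS off, rose with 738 and 870.2 in the combination, against 409.8 and 432 with panobinostat (0.93 ± 0.13, adjusted p = 0.000723), and RASGRP3, the exchange factor that couples G alpha q to RAS, had 1949 and 1789 in the combination, against 2385 and 2542 with panobinostat (-0.40 ± 0.10, adjusted p = 0.0196), a call lost in omissions (adjusted p 0.156 without combination replicate 2).

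MYC, the growth factor response gene that drives ribosome and nucleotide synthesis, fell steeply. It had 44.5 and 89.8 in the combination, against 5921 and 6139 with panobinostat (-6.55 ± 0.30, adjusted p = 1.03e-06), and without panobinostat 53.2 and 32.1 with trametinib, against 4021 and 4133 in vehicle. The interaction of MYC was 0.036 ± 0.43, adjusted p = 0.962. MXD4, a dimerisation partner of MAX that antagonises MYC, rose with 1196 and 1389 in the combination, against 495 and 467 with panobinostat (1.42 ± 0.22, adjusted p = 0.00143). Of 11 tested genes of the MYC network 4 rose and 4 fell, and the 4 rises became 1 without combination replicate 1 or either panobinostat library, while the 4 falls became 2 without panobinostat replicate 1. AP-1 and immediate early genes split. JUN, the core AP-1 subunit, rose with 1840.3 and 1911 in the combination, against 349 and 343 with panobinostat (2.44 ± 0.11, adjusted p = 1.03e-06). ATF3, a stress-induced partner of JUN, rose with 725 and 574 in the combination, against 82.6 and 82.7 with panobinostat (2.95 ± 0.21, adjusted p = 1.35e-05). KLF6, a zinc finger factor, rose with 2098 and 2083 in the combination, against 1122 and 1128 with panobinostat (0.89 ± 0.065, adjusted p = 1.56e-05). The rises of JUN, ATF3 and KLF6 stood beside the fall of EGR1 (-3.33) and IER2 (-1.22 ± 0.18, adjusted p = 0.00117) on the same list of 19 tested genes, where 5 rose and 4 fell. The rises became 3 without panobinostat replicate 1 and the falls 2 without panobinostat replicate 1. FOS itself had 165 and 155 in the combination, against 270.1 and 198 with panobinostat and did not pass (-0.53 ± 0.27, adjusted p = 0.195).

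Genes for making ribosomes fell almost as a block. Of 32 tested nucleolar ribosome biogenesis genes, 30 fell and 2 did not pass, with a median log2 change of -1.29. NOLC1, a chaperone of small nucleolar ribonucleoproteins, had 570.1 and 531 in the combination, against 2349.8 and 2235 with panobinostat (-2.06 ± 0.080, adjusted p = 4.87e-07). NCL, the abundant nucleolar protein nucleolin, had 2641 and 2606 in the combination, against 6210.3 and 7138 with panobinostat (-1.34 ± 0.068, adjusted p = 1.76e-06). DDX21, a helicase of ribosomal RNA transcription and processing, had 700.1 and 738 in the combination, against 2422 and 2588 with panobinostat (-1.80 ± 0.092, adjusted p = 1.76e-06). In these 3 genes the combination levels were close to those in cells given trametinib without panobinostat, where NCL had 2633 and 2601, NOLC1 667 and 624 and DDX21 711 and 819. The trametinib and vehicle libraries are labelled separately from the other libraries. Any difference in processing is therefore part of such level comparisons, here and below. NOP56, a core protein of box C/D ribonucleoproteins, fell by a log2 change of -1.87 ± 0.13, adjusted p = 1.15e-05, and NPM1, nucleophosmin, by -0.97 ± 0.058, adjusted p = 5.1e-06. The RNA polymerase I subunit POLR1B fell with 183 and 228 in the combination, against 431 and 439 with panobinostat (-1.09 ± 0.16, adjusted p = 0.00114), and the polymerase I factor UBTF changed least among those that passed, at -0.34 ± 0.088, adjusted p = 0.019, a call lost in omissions (adjusted p 0.114 without panobinostat replicate 1). Cytosolic ribosomal protein genes, in contrast, had a median log2 change of -0.10 over 45 tested genes, of which 9 fell and 1 rose. The 9 falls became 3 without combination replicate 2, 4 without panobinostat replicate 1 and 19 without either trametinib library, and the 1 rise became 0 without combination replicate 2 or either panobinostat library and 2 without either trametinib library. RPL6 fell with a log2 change of -0.48 ± 0.057, adjusted p = 0.000301, and RPLP1 rose by 0.24 ± 0.058, adjusted p = 0.0145, with an adjusted p of 0.115 without combination replicate 2. Ribosomal protein genes have many near-identical processed copies, so single members are uncertain.

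Nucleotide synthesis followed the same course, with 21 of 25 tested genes lower and a median log2 change of -0.99. The 21 falls became 12 without combination replicate 1 or panobinostat replicate 2 and 13 without panobinostat replicate 1. CAD, the enzyme of the opening steps of pyrimidine synthesis, had 409 and 427 in the combination, against 1029.6 and 951 with panobinostat (-1.24 ± 0.10, adjusted p = 2.49e-05). PFAS and MTHFD1, enzymes of purine and folate-linked carbon metabolism, fell with a log2 change of -1.64 ± 0.14, adjusted p = 4.2e-05 and -1.34 ± 0.10, adjusted p = 2.14e-05. IMPDH2, which commits purines to guanine nucleotides, had 396 and 349.9 in the combination, against 956 and 851 with panobinostat (-1.28 ± 0.12, adjusted p = 8.67e-05). RRM2, the regulated subunit of ribonucleotide reductase, had 92.5 and 88.2 in the combination, against 443 and 434 with panobinostat (-2.27 ± 0.36, adjusted p = 0.0017). Combination and panobinostat libraries did not overlap in any of these 5 genes, as in 68.6% of all tested genes. DUT, TK1, RRM1 and SHMT1 did not pass, at log2 changes of 0.11, -0.42, -0.41 and -0.27.

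Aminoacyl-tRNA synthetases and amino acid transporters gave 18 lower and 3 higher genes of 29 tested. The glutamine transporter SLC1A5 had 189.7 and 234 in the combination, against 853 and 831 with panobinostat (-1.99 ± 0.18, adjusted p = 5.48e-05), and SLC7A1, a carrier of cationic amino acids, had 645 and 682 in the combination, against 1996 and 2051 with panobinostat (-1.61 ± 0.11, adjusted p = 9.9e-06). VARS, the valyl-tRNA synthetase, had 1263 and 1199 in the combination, against 2534 and 2548 with panobinostat (-1.05 ± 0.068, adjusted p = 8.52e-06). SLC7A5, the large neutral amino acid transporter, went the other way, with 6659 and 6926 in the combination, against 3403 and 3549 with panobinostat (0.97 ± 0.052, adjusted p = 2.34e-06), and its heavy chain SLC3A2 rose by 0.43 ± 0.075, adjusted p = 0.00312. Chaperones fell in 15 of 21 tested genes. HSPA8, the constitutive HSP70, had 4778 and 4626 in the combination, against 12976 and 13413 with panobinostat (-1.49 ± 0.084, adjusted p = 3.43e-06). HSPD1, the mitochondrial chaperonin, had 1289 and 1228 in the combination, against 2995 and 2748 with panobinostat (-1.19 ± 0.074, adjusted p = 6.28e-06), and HSP90AB1 had 6917 and 7037 in the combination, against 14709 and 14834 with panobinostat (-1.08 ± 0.047, adjusted p = 7.53e-07). The small heat shock protein gene HSPB1 was the exception: it rose with 26158 and 25212 in the combination, against 11073 and 11829.7 with panobinostat (1.17 ± 0.057, adjusted p = 1.48e-06). Heat shock genes have near-identical copies, and the sources used here do not say how the counting split their reads.

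Glycolysis genes fell in 12 of 24 tested. LDHA, which makes lactate from pyruvate, had 3078 and 3249 in the combination, against 8370.5 and 8069.6 with panobinostat (-1.38 ± 0.081, adjusted p = 4.44e-06). HK1, a hexokinase, had 828 and 815 in the combination, against 1784 and 1726 with panobinostat (-1.09 ± 0.080, adjusted p = 1.59e-05), and ENO1, enolase, had 2601 and 2676 in the combination, against 5037 and 5085 with panobinostat (-0.94 ± 0.087, adjusted p = 6.35e-05). No library of the combination reached a panobinostat library in these 3 genes, beside 68.6% of all tested genes without overlap. In the unfolded protein and integrated stress response list 7 of 26 tested genes fell, a count that became 4 without combination replicate 1 or panobinostat replicate 2. ATF4, the effector of the integrated stress response, had 2118 and 2127 in the combination, against 3241 and 3112 with panobinostat (-0.58 ± 0.059, adjusted p = 0.000107), with an interaction of -0.52 ± 0.083, adjusted p = 0.00239.

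**Figure D3:**
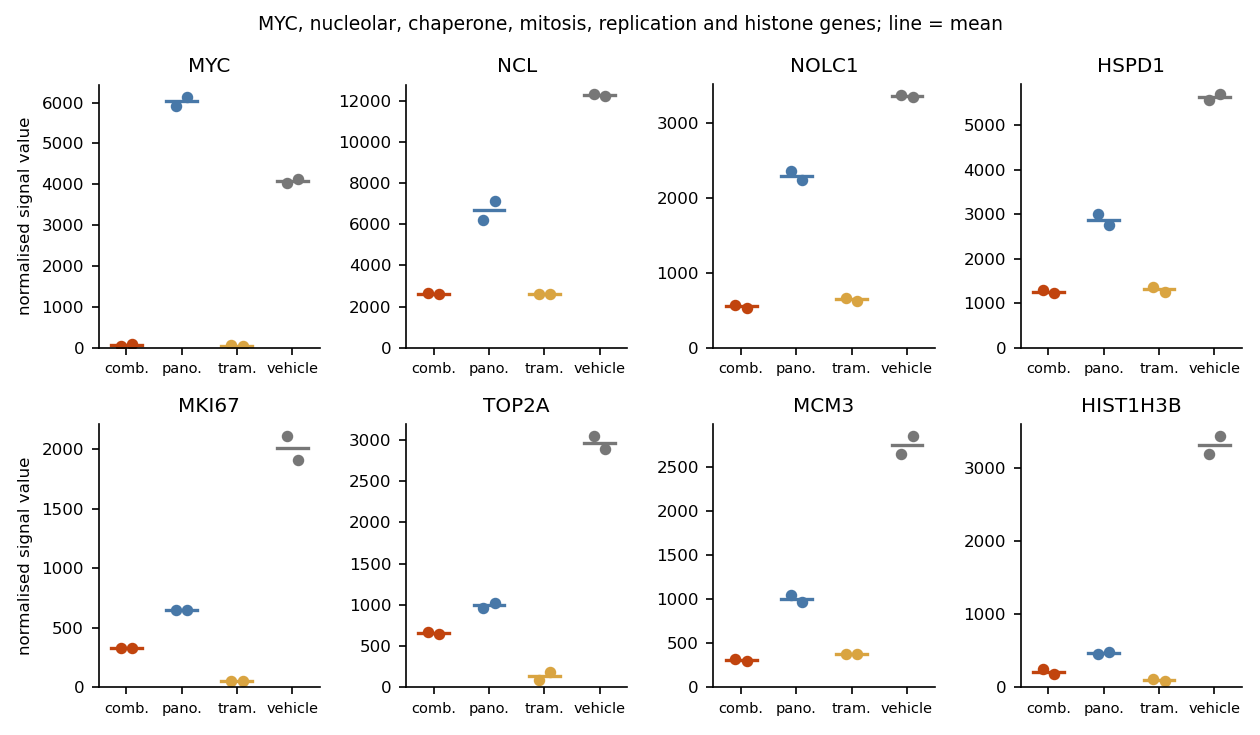
Normalised signal value (vertical axes, linear and starting at 0, 1 panel per gene) of growth genes (MYC, NCL, NOLC1, HSPD1) and cell cycle genes (MKI67, TOP2A, MCM3, HIST1H3B) in each library, with the groups from left to right combination, panobinostat, trametinib and vehicle; points are libraries and lines are group means. NCL lies at 2641 and 2606 in the combination and at 2633 and 2601 with trametinib, whereas MKI67 lies at 335 and 327 in the combination and at 54.2 and 56.3 with trametinib.

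Cell cycle genes fell in part. Of 35 tested DNA replication genes, 16 fell, with a median log2 change of -1.01, and the count became 30 without either trametinib library. MCM3, a subunit of the replicative helicase, had 317 and 303 in the combination, against 1045 and 969 with panobinostat (-1.70 ± 0.10, adjusted p = 3.58e-06). MCM4, another subunit, had 286 and 364 in the combination, against 844 and 853 with panobinostat (-1.39 ± 0.14, adjusted p = 0.000115), and MCM7 had 104 and 109.5 in the combination, against 284 and 301 with panobinostat (-1.45 ± 0.17, adjusted p = 0.000275). PCNA, the sliding clamp of DNA polymerases, had 334 and 386 in the combination, against 558 and 568 with panobinostat (-0.65 ± 0.14, adjusted p = 0.01), a call lost in omissions (adjusted p 0.089 without combination replicate 1). All 4 genes were lower in both combination libraries than in both panobinostat libraries, where 68.6% of all tested genes had no overlap. Mitosis genes passed in 13 of 35, all falls, with a median log2 change of -0.59, and this count became 6 without combination replicate 2 or panobinostat replicate 1, 7 without panobinostat replicate 2, 8 without combination replicate 1, 28 without trametinib replicate 1 and 29 without trametinib replicate 2. MKI67, the proliferation antigen Ki-67, had 335 and 327 in the combination, against 647 and 646 with panobinostat (-0.96 ± 0.12, adjusted p = 0.000504). PTTG1, securin, had 1172 and 1211 in the combination, against 3709.7 and 3524 with panobinostat (-1.60 ± 0.11, adjusted p = 1.42e-05). FOXM1, a transcription factor of mitotic genes, had 702 and 732 in the combination, against 1222 and 1297 with panobinostat (-0.81 ± 0.085, adjusted p = 0.000138). TOP2A, topoisomerase II alpha, had 667 and 642 in the combination, against 966 and 1021 with panobinostat and did not pass (-0.60 ± 0.27, adjusted p = 0.143).

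Homologous recombination and Fanconi genes passed in 9 of 25, all falls, a count that became 3 without panobinostat replicate 2, 4 without combination replicate 1, 5 without combination replicate 2 or panobinostat replicate 1, 15 without trametinib replicate 2 and 16 without trametinib replicate 1. EXO1, a DNA end-resecting nuclease, had 59.7 and 111 in the combination, against 314 and 359 with panobinostat (-2.03 ± 0.28, adjusted p = 0.000786), and BRCA1 had 188 and 159.7 in the combination, against 296 and 324 with panobinostat (-0.83 ± 0.14, adjusted p = 0.00284). Replication-dependent histone genes passed in 6 of 22, all falls, a count that became 3 without combination replicate 2 or either panobinostat library and 11 without either trametinib library. HIST1H3B had 251 and 178 in the combination, against 458 and 483 with panobinostat (-1.15 ± 0.19, adjusted p = 0.00199), while HIST1H1E had 6387 and 5933 in the combination, against 6215 and 5772 with panobinostat (0.040 ± 0.085, adjusted p = 0.801). Histone genes have near-identical copies, so these single values are uncertain.

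Upstream of these genes, G1 regulators fell in 11 of 21 tested and rose in 2, and the falls became 5 without combination replicate 1 or either panobinostat library and 7 without combination replicate 2 and the rises 1 without combination replicate 1 or panobinostat replicate 2. Beside CCND1 (-3.24), E2F1, the activator of S-phase genes, had 33.95 and 31.9 in the combination, against 136 and 118 with panobinostat (-1.91 ± 0.28, adjusted p = 0.00115). CDK6, a partner of cyclin D, had 553 and 382 in the combination, against 1146 and 1145 with panobinostat (-1.32 ± 0.23, adjusted p = 0.0028). CDK4 did not pass, with 852 and 869 in the combination, against 978 and 878 with panobinostat (-0.11 ± 0.10, adjusted p = 0.488). The retinoblastoma gene RB1 rose, with 1823 and 1862 in the combination, against 1146 and 1212 with panobinostat (0.64 ± 0.12, adjusted p = 0.00381). CDK inhibitors rose in 5 of 7 tested genes, a count that became 1 without combination replicate 1 or panobinostat replicate 2 and 2 without combination replicate 2 or panobinostat replicate 1. CDKN1A, which encodes p21, had 5237 and 5223 in the combination, against 3579 and 3611 with panobinostat (0.54 ± 0.075, adjusted p = 0.000749). CDKN1C, which encodes p57, had 207 and 271 in the combination, against 53.01 and 54.4 with panobinostat (2.12 ± 0.53, adjusted p = 0.017), with an adjusted p of 0.139 without combination replicate 2. CDKN1B, which encodes p27, had 587 and 499 in the combination, against 372 and 309.6 with panobinostat (0.67 ± 0.15, adjusted p = 0.0111), with an adjusted p of 0.104 without panobinostat replicate 2. Of these, CDKN1A changed in opposite directions with and without panobinostat: it had 1855 and 2158 with trametinib, against 2564 and 2601 in vehicle (-0.37 ± 0.075, adjusted p = 0.00269), and the interaction was 0.91 ± 0.11, adjusted p = 0.000429.

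Promoter sequence was compared for the replication and mitosis lists as a whole, whether or not a gene fell. RefSeq sequence of GRCh38.p14 was searched on both strands in the 250 bases before each start site. The words TTTGGCGC and TTTCCCGC, forms of the E2F site, were in 1.96% of all 27305 promoters, in 3.15% of the 10425 promoters of tested genes and in 10 of the 31 matched DNA replication genes (32.3%). The word TTTGAA, the core of the cell cycle homology region, was in 13.6% of all promoters, in 8.52% of those of tested genes and in 14 of 28 matched mitosis genes. It was in 0 of 31 matched DNA replication genes, and the E2F words were in 2 of 28 matched mitosis genes. Other words and lists were searched too. The ETS word CCGGAAGT was in 7.15% of the promoters of tested genes and in 0 of 18 matched ERK output genes. The AP-1 word TGACTCA was in 2.3% of the promoters of tested genes and in 2 of those 18. A match is a description of letters and not a shown site. The promoters of MCM3 (chr6:52284743-52284992, minus strand), PCNA (chr20:5126623-5126872, minus strand) and MKI67 (chr10:128126424-128126673, minus strand) are printed as examples of falling genes with an E2F word or TTTGAA, in capitals.
MCM3: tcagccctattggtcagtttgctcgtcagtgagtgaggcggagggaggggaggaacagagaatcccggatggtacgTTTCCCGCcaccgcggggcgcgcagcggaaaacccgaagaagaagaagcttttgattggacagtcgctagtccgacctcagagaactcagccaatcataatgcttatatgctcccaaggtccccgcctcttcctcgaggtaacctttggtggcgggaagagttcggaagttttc
PCNA: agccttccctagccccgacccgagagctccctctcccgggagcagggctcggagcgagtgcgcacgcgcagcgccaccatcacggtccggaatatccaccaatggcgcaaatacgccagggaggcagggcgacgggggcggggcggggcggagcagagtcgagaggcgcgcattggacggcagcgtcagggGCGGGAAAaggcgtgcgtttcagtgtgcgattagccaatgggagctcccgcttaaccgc
MKI67: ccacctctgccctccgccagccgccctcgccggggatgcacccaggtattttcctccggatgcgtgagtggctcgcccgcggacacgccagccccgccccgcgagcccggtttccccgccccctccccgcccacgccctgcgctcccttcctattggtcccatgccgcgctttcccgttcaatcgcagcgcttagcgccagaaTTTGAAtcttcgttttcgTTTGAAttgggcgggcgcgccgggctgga

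The pigment and melanocyte lineage programme did not move as a unit. Of 25 tested genes, 13 rose and 7 fell, beside 10.9% and 13.1% of all genes, with a median log2 change of 0.30. The abundant melanosome proteins rose. PMEL, the fibril protein of the melanosome, had 42296 and 45795 in the combination, against 28666 and 30566 with panobinostat (0.57 ± 0.056, adjusted p = 8.42e-05). TYRP1, an enzyme of eumelanin synthesis, had 64632 and 63691 in the combination, against 43182 and 45104 with panobinostat (0.54 ± 0.062, adjusted p = 0.000241). GPNMB, a melanosomal glycoprotein, had 48749 and 45273 in the combination, against 23587 and 23839 with panobinostat (0.99 ± 0.056, adjusted p = 3.58e-06). DCT, dopachrome tautomerase, was nearly absent with panobinostat and appeared when trametinib was added, with 258 and 236 in the combination, against 5.10 and 10.1 with panobinostat (4.91 ± 0.48, adjusted p = 9.03e-05). It was similarly low in vehicle. In these 4 genes each combination library exceeded both panobinostat libraries (no overlap in 68.6% of all tested genes). OCA2, a melanosomal membrane protein that sets its pH, rose by 1.08 ± 0.073, adjusted p = 9.9e-06, and SOX10, the neural crest factor that activates MITF, rose by 0.30 ± 0.062, adjusted p = 0.0066, with an adjusted p of 0.069 without combination replicate 1.

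MITF, the master regulator of melanocytes, and several ion carriers of the melanosome fell. MITF had 4184 and 4336 in the combination, against 5343 and 5099 with panobinostat (-0.29 ± 0.054, adjusted p = 0.00377). SLC24A5, a potassium-dependent sodium and calcium exchanger, had 365 and 406 in the combination, against 1088 and 1229 with panobinostat (-1.58 ± 0.10, adjusted p = 8.75e-06). TRPM1, a cation channel gene transcribed under MITF, had 896 and 699.8 in the combination, against 1529 and 1360.2 with panobinostat (-0.86 ± 0.11, adjusted p = 0.000589), and SLC45A2, a transporter of melanosomes, had 588 and 612 in the combination, against 981 and 865 with panobinostat (-0.62 ± 0.10, adjusted p = 0.0017). ATP7A, the copper transporter that supplies tyrosinase, fell with a log2 change of -0.76 ± 0.10, adjusted p = 0.000603. MLANA, the melanosome protein melan-A, had 4466 and 4155 in the combination, against 5209 and 5000.3 with panobinostat (-0.24 ± 0.058, adjusted p = 0.0133), a call lost in omissions (adjusted p 0.108 without combination replicate 2). TYR, tyrosinase, did not pass, with 1589 and 1413 in the combination, against 1745 and 1789 with panobinostat (-0.24 ± 0.081, adjusted p = 0.0627).

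Without panobinostat the same drug raised nearly all of these genes. In trametinib against vehicle 24 of the 25 rose and 1, SLC24A5, fell, beside 23.7% higher and 27.4% lower of all tested genes. The interaction was negative and passed for 20 of 25, beside 9.04% of all tested genes. MITF had 8362 and 8592 with trametinib, against 4158 and 4070.1 in vehicle (1.04 ± 0.054, adjusted p = 4.74e-07), an interaction of -1.34 ± 0.076, adjusted p = 1.05e-05. TRPM1 had 8151 and 7512 with trametinib, against 1586 and 1662 in vehicle, an interaction of -3.13 ± 0.16, adjusted p = 6.82e-06. EDNRB, the endothelin receptor of melanocyte development, rose beside panobinostat by 0.54 ± 0.10, adjusted p = 0.00344, but had 7236 and 8447 with trametinib, against 812 and 799 in vehicle, and its interaction was -2.73 ± 0.14, adjusted p = 6.61e-06. PMEL and TYRP1 showed no such difference that passed, with interactions of 0.069 ± 0.079, adjusted p = 0.586 and -0.14 ± 0.088, adjusted p = 0.291. Of the 7 genes that fell beside panobinostat, 6 rose without it. DCT, at 1984 and 1912 with trametinib, stayed well below that level in the combination (interaction -2.78 ± 0.68, adjusted p = 0.0204, with an adjusted p of 0.096 without combination replicate 2).

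**Figure D4:**
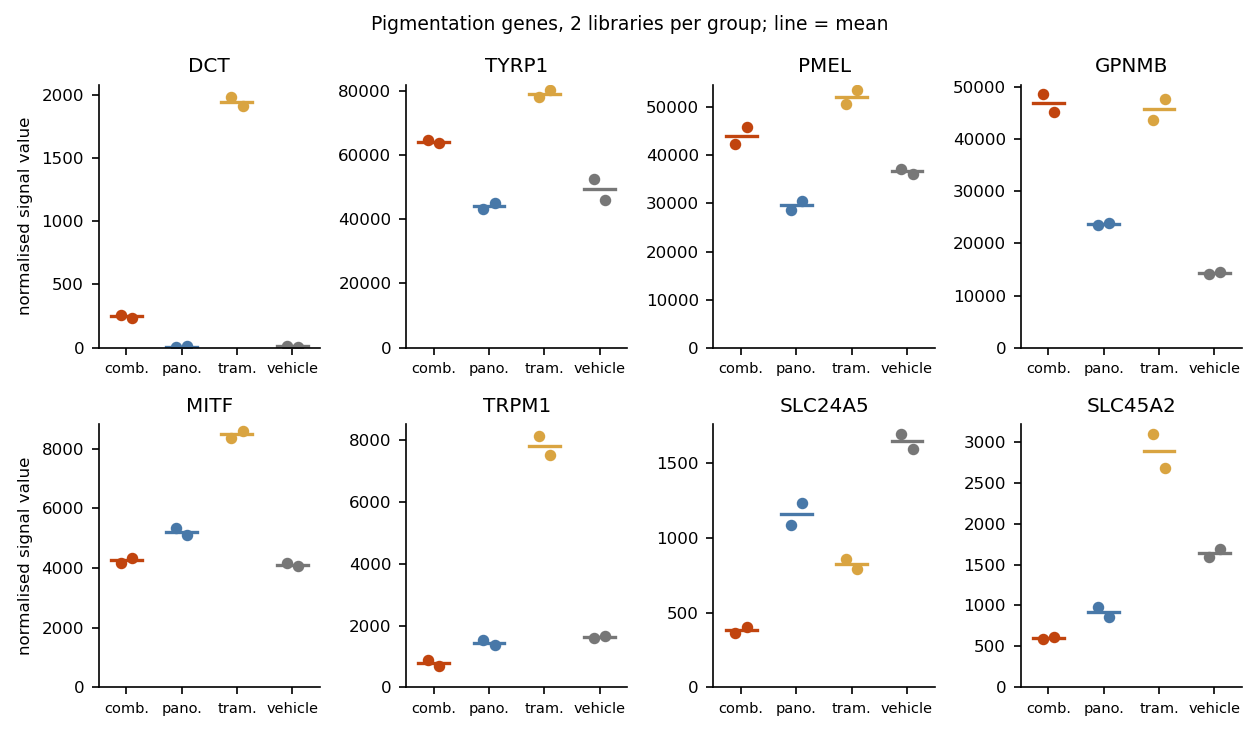
Normalised signal value (vertical axes, linear and starting at 0, 1 panel per gene) of DCT, TYRP1, PMEL, GPNMB, MITF, TRPM1, SLC24A5 and SLC45A2 in each library, with the groups from left to right combination, panobinostat, trametinib and vehicle; points are libraries and lines are group means. MITF lies at 4184 and 4336 in the combination, below panobinostat at 5343 and 5099, and at 8362 and 8592 with trametinib, above vehicle at 4158 and 4070.

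The M box TCATGTG, the long form of the E box that MITF binds, was found on either strand in 2.58% of all RefSeq promoters (GRCh38.p14), in 1.37% of those of tested genes and in 5 of 21 matched pigmentation genes (23.8%), TYR, TYRP1, SLC24A5, GPR143 and GPNMB. The word was present both in genes that rose and in a gene that fell beside panobinostat. The promoters of TYRP1 (chr9:12693135-12693384, plus strand) and GPNMB (chr7:23246525-23246774, plus strand), which rose, and of SLC24A5 (chr15:48120740-48120989, plus strand), which fell, are shown with the M box in capitals.
TYRP1: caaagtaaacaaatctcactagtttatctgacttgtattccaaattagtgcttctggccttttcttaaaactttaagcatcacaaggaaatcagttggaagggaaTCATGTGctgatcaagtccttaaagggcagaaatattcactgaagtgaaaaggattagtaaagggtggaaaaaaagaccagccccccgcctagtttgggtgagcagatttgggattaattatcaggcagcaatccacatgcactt
GPNMB: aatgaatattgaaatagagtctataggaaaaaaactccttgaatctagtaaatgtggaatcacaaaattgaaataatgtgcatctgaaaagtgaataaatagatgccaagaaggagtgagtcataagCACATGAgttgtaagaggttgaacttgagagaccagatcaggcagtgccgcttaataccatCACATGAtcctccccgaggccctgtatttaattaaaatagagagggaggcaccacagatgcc
SLC24A5: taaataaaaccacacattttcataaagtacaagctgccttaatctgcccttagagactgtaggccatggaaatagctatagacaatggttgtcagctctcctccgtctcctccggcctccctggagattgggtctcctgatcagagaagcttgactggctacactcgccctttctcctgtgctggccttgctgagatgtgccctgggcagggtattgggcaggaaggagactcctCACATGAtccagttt

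On a list of G alpha q signalling and other genes mutated in uveal melanoma, 1 of 21 tested genes rose and 3 fell. All tested genes gave 10.9% and 13.1%. EIF1AX, 1 of the 3 falls, is not a gene of the G alpha q pathway. The rise count became 2 without either trametinib library, and the falls became 5 without either trametinib library. GNAQ had 509 and 535 in the combination, against 532 and 532 with panobinostat (-0.027 ± 0.20, adjusted p = 0.948), and GNA11 had 417 and 424 in the combination, against 405 and 419 with panobinostat (0.030 ± 0.17, adjusted p = 0.93). Neither passed. EIF1AX, a translation initiation factor gene that is recurrently mutated in uveal melanoma, fell with 889 and 914 in the combination, against 1928 and 1713 with panobinostat (-1.01 ± 0.093, adjusted p = 6.01e-05), and TRIO, an exchange factor downstream of G alpha q, rose with 1323 and 1270.3 in the combination, against 958 and 877 with panobinostat (0.50 ± 0.089, adjusted p = 0.00323). Of the 8 tested markers of class 1 tumours, the prognostic class of low metastatic risk, 4 rose and 1 fell, and the 1 fall became 0 without either combination library or either panobinostat library and 2 without either trametinib library. ID2, an inhibitor of DNA binding by helix-loop-helix factors, had 3329 and 3452 in the combination, against 1451 and 1395 with panobinostat (1.25 ± 0.069, adjusted p = 2.87e-06), and MTUS1 had 3567 and 3538 in the combination, against 1789 and 1858 with panobinostat (0.96 ± 0.066, adjusted p = 1.13e-05).

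Genes of PI3K and FOXO signalling gave 14 rises and 3 falls of 31 tested, with a median log2 change of 0.45, and the falls became 8 without either trametinib library. IRS2, the adaptor of insulin and IGF receptors, had 12100.4 and 12735 in the combination, against 3285 and 3265 with panobinostat (1.92 ± 0.065, adjusted p = 3.7e-07). PIK3R3, a regulatory subunit of PI3K, had 1316 and 1559 in the combination, against 281 and 291 with panobinostat (2.32 ± 0.14, adjusted p = 5.79e-06), and GAB1, a docking protein of receptor kinases, had 2332 and 2510.1 in the combination, against 851 and 819.8 with panobinostat (1.53 ± 0.078, adjusted p = 1.76e-06). Inhibitors of the same axis rose with them. DDIT4, which restrains mTORC1, had 1325 and 1216 in the combination, against 349.7 and 309 with panobinostat (1.95 ± 0.17, adjusted p = 4.18e-05), SESN3, a sestrin of similar action, rose by 1.39 ± 0.10, adjusted p = 1.32e-05, and PIK3IP1, an inhibitor of the PI3K catalytic subunit, had 132 and 141 in the combination, against 32.6 and 32.3 with panobinostat (2.04 ± 0.39, adjusted p = 0.00471). INPP4B, a phosphoinositide phosphatase, fell with 860.5 and 898 in the combination, against 2556 and 2626 with panobinostat (-1.56 ± 0.10, adjusted p = 8.82e-06). The combination libraries held more IRS2 than those of any other group, since it had 5329 and 4828 with trametinib, against 1908 and 2019.6 in vehicle without panobinostat, and its interaction was 0.55 ± 0.093, adjusted p = 0.00313.

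Receptor tyrosine kinases split, with 5 higher and 5 lower of 23 tested. The 5 rises became 3 without either combination library or either panobinostat library, and the 5 falls became 1 without combination replicate 2 or either panobinostat library and 3 without combination replicate 1. FGFR2 had 633 and 715 in the combination, against 45.9 and 41.3 with panobinostat (3.92 ± 0.19, adjusted p = 1.25e-06), and without panobinostat 781 and 774 with trametinib, against 53.6 and 52.3 in vehicle. ERBB3, the kinase-poor partner of ERBB2 that recruits PI3K, had 1136 and 1216 in the combination, against 778 and 755 with panobinostat (0.62 ± 0.093, adjusted p = 0.00125). The rise of ERBB3 was larger without panobinostat, with 1343 and 1443 with trametinib, against 351 and 339 in vehicle and an interaction of -1.39 ± 0.13, adjusted p = 0.000138. MET, the receptor for hepatocyte growth factor, fell beside panobinostat, with 1942 and 1783 in the combination, against 4737 and 4893 with panobinostat (-1.37 ± 0.062, adjusted p = 9.23e-07), but rose without it, with 9197 and 9695 with trametinib, against 5559.9 and 5446 in vehicle (0.78 ± 0.062, adjusted p = 6.94e-06). The interaction of MET was -2.15 ± 0.087, adjusted p = 3.46e-06. ALK, another receptor kinase, had 0 and 6.09 in the combination, against 294 and 201 with panobinostat (-6.52 ± 1.06, adjusted p = 0.0019), and its 4 reads over both combination libraries put it 93.3-fold lower (95% counting interval 36.2 to 344).

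Among BCL2 relatives and inhibitors of apoptosis 4 of 19 tested genes rose and 2 fell, and the 4 rises became 1 without combination replicate 2, 2 without combination replicate 1 or panobinostat replicate 2, 7 without trametinib replicate 1 and 8 without trametinib replicate 2. The 2 falls became 0 without combination replicate 1 or panobinostat replicate 1 and 1 without panobinostat replicate 2. BMF, a BH3-only activator of apoptosis, had 3491 and 3202 in the combination, against 548 and 614 with panobinostat (2.52 ± 0.10, adjusted p = 4.55e-07). BCL2L11, which encodes BIM, the BH3-only protein that ERK marks for degradation, had 336 and 432 in the combination, against 187 and 141 with panobinostat (1.23 ± 0.27, adjusted p = 0.00944), with an adjusted p of 0.102 without combination replicate 2. BBC3, which encodes PUMA, had 121 and 122 in the combination, against 31.6 and 45.4 with panobinostat (1.65 ± 0.35, adjusted p = 0.00825), with an adjusted p of 0.0718 without panobinostat replicate 1. In all 3 the combination libraries lay above the panobinostat libraries, beside 68.6% of all tested genes without overlap. The survival gene BCL2 fell, with 321 and 459 in the combination, against 706 and 664 with panobinostat (-0.83 ± 0.18, adjusted p = 0.00884), and its adjusted p was 0.0783 without panobinostat replicate 1. MCL1, another survival gene, had 1445 and 1448 in the combination, against 1547 and 1441 with panobinostat and did not pass (-0.046 ± 0.11, adjusted p = 0.819). BMF had 1712 and 1663 with trametinib, against 214 and 207 in vehicle, so it rose on both backgrounds, with an interaction of -0.47 ± 0.13, adjusted p = 0.0369 and an adjusted p of 0.147 without combination replicate 2.

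Of 24 tested p53 targets 8 rose and 3 fell, and the 8 rises became 5 without combination replicate 2 and the 3 falls 0 without panobinostat replicate 1 and 1 without panobinostat replicate 2. TP53INP1, a pro-apoptotic p53 target, had 2491 and 2614 in the combination, against 807 and 797 with panobinostat (1.67 ± 0.083, adjusted p = 1.58e-06), and BTG2, an antiproliferative factor, had 1030.2 and 1132 in the combination, against 420.0 and 435 with panobinostat (1.34 ± 0.13, adjusted p = 0.000103). MDM2, the ubiquitin ligase of p53, rose beside panobinostat by 0.35 ± 0.077, adjusted p = 0.00948, with an adjusted p of 0.0874 without panobinostat replicate 1, and fell without it by a log2 change of -0.48 ± 0.077, adjusted p = 0.000617. GDF15, a secreted stress factor, was at 0 in both combination libraries, against 32.6 and 44.4 with panobinostat, at least 9.53-fold lower at a floor of 3 reads per library. TEAD targets gave 7 rises and 3 falls of 23, and the rises became 2 without combination replicate 2, 3 without either panobinostat library and 4 without combination replicate 1. The 3 falls of that list became 1 without either combination library or either panobinostat library and 8 without either trametinib library. FOXF2, a forkhead factor, had 2249 and 2140.4 in the combination, against 406 and 406 with panobinostat (2.43 ± 0.086, adjusted p = 4.13e-07), and CYR61, a matricellular ligand of integrins, had 1132 and 1287 in the combination, against 396 and 459 with panobinostat (adjusted p = 4.66e-05). CYR61 was lower with trametinib when panobinostat was absent, with 388 and 327 with trametinib, against 634 and 646 in vehicle (-0.84 ± 0.13, adjusted p = 0.000549) and an interaction of 2.34 ± 0.19, adjusted p = 6.31e-05. YAP1 had 1248 and 1301 in the combination, against 1246 and 1171 with panobinostat (0.077 ± 0.080, adjusted p = 0.552) and did not pass.

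Of 18 tested histone deacetylase and sirtuin genes 5 rose, a count that became 1 without combination replicate 2, 2 without combination replicate 1 or panobinostat replicate 2, 3 without panobinostat replicate 1 or either vehicle library, 9 without trametinib replicate 1 and 10 without trametinib replicate 2. HDAC1 had 834 and 730.2 in the combination, against 767 and 837 with panobinostat (-0.038 ± 0.15, adjusted p = 0.9), and HDAC2 had 649.7 and 767 in the combination, against 919.5 and 766 with panobinostat (-0.25 ± 0.16, adjusted p = 0.311). Neither passed. HDAC5, a class II deacetylase, rose with 1229 and 1220.1 in the combination, against 703 and 782 with panobinostat (0.72 ± 0.11, adjusted p = 0.00142). The other rises were those of SIRT2, SIRT3, SIRT5 and SIRT7, sirtuins that depend on NAD and are not targets of panobinostat. Of 14 tested acetyltransferases and BET proteins 1 rose and 2 fell, beside 10.9% and 13.1% of all genes, and the rise count became 0 without combination replicate 1 or either panobinostat library and 3 without either trametinib library and that of falls 0 without combination replicate 2 and 1 without combination replicate 1 or either panobinostat library. Neuronal genes, a group often raised by deacetylase inhibitors, gave 4 rises and 2 falls of 20, against the same shares. TUBB3, neuronal tubulin, had 946 and 952 in the combination, against 349 and 447 with panobinostat (1.26 ± 0.13, adjusted p = 0.000104), and CNTN1, an adhesion molecule of neurons, had 1843 and 1836 in the combination, against 821 and 841 with panobinostat (1.15 ± 0.16, adjusted p = 0.000889). VGF, a neuropeptide precursor, fell with 746 and 946 in the combination, against 8093 and 8185 with panobinostat (-3.27 ± 0.14, adjusted p = 7.53e-07).

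Cholesterol and fatty acid genes gave 13 rises and 6 falls of 30, beside 10.9% and 13.1% of all genes, with the rises becoming 7 without panobinostat replicate 2 and the falls becoming 1 without combination replicate 1 or panobinostat replicate 2, 2 without panobinostat replicate 1 and 3 without combination replicate 2. SCD, the stearoyl-CoA desaturase, had 12792 and 13442 in the combination, against 6733 and 6482 with panobinostat (0.99 ± 0.052, adjusted p = 2.16e-06). FDFT1, squalene synthase, had 8105 and 7628 in the combination, against 4096 and 4128 with panobinostat (0.93 ± 0.054, adjusted p = 4.07e-06). Lysosome genes gave 12 rises and 2 falls of 36, with the rises becoming 7 without panobinostat replicate 1 and the falls 4 without either trametinib library, and the other 22 did not pass. TPP1, a lysosomal peptidase, had 12085 and 12214 in the combination, against 8067 and 7839.8 with panobinostat (0.61 ± 0.052, adjusted p = 4.15e-05), and LAMP2, a membrane protein of lysosomes, had 4741 and 4509 in the combination, against 3221 and 3123 with panobinostat (0.54 ± 0.059, adjusted p = 0.000164). CTSZ, a cathepsin, fell with a log2 change of -0.85 ± 0.079, adjusted p = 6.27e-05. Autophagy genes gave 8 rises and 1 fall of 31, with the rises becoming 3 without combination replicate 1 or either panobinostat library and 5 without combination replicate 2 and the 1 fall 0 without either combination library or either panobinostat library and 5 without either trametinib library, and the other 22 did not pass. SQSTM1, the cargo receptor p62, had 16229.5 and 17317 in the combination, against 10761 and 10427 with panobinostat (0.66 ± 0.060, adjusted p = 5.63e-05).

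Antigen presentation genes of MHC class I gave 7 rises and 3 falls of 18, with the rises becoming 4 without combination replicate 1 and the falls 1 without combination replicate 2. B2M, the invariant light chain, had 6534 and 6704 in the combination, against 4179.6 and 4348 with panobinostat (0.63 ± 0.085, adjusted p = 0.000603). The peptide transporter gene TAP2 fell, with 217 and 253 in the combination, against 447 and 440.6 with panobinostat (-0.92 ± 0.16, adjusted p = 0.00293). Genes of this family are near-identical, and single members are uncertain. Interferon-stimulated genes split into 5 rises and 4 falls of 26, counts that became 2 without combination replicate 2 or panobinostat replicate 2, 3 without combination replicate 1, panobinostat replicate 1 or either vehicle library and 9 without either trametinib library for the rises and 1 without panobinostat replicate 1 and 2 without combination replicate 2 for the falls. IFI6 rose with 741 and 729 in the combination, against 367 and 416 with panobinostat (0.91 ± 0.12, adjusted p = 0.00071), IFITM2 fell with 1048 and 913 in the combination, against 1908 and 1853 with panobinostat (-0.94 ± 0.086, adjusted p = 5.8e-05), and DDX58, which encodes the RNA sensor RIG-I, fell with 14.05 and 3.04 in the combination, against 88.7 and 65.5 with panobinostat (-3.31 ± 0.67, adjusted p = 0.00619), with an adjusted p of 0.0707 without panobinostat replicate 1.

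Matrix and adhesion genes gave 9 rises and 4 falls of 31, with the rises becoming 14 without either trametinib library and the falls becoming 2 without combination replicate 2 or panobinostat replicate 2. FN1, fibronectin, had 3881 and 4349 in the combination, against 1675 and 1533 with panobinostat (1.36 ± 0.085, adjusted p = 6.51e-06), and MMP14, a membrane-bound matrix protease, had 6892 and 6634 in the combination, against 3163 and 3327 with panobinostat (1.06 ± 0.068, adjusted p = 7.6e-06). ITGA3, an integrin chain of laminin receptors, fell with 883 and 817 in the combination, against 2253 and 2165 with panobinostat (-1.38 ± 0.13, adjusted p = 6.24e-05). CXCL12, the chemokine ligand of CXCR4, rose with 402 and 392 in the combination, against 25.5 and 21.2 with panobinostat (4.04 ± 0.27, adjusted p = 9.9e-06). Among 14 tested potassium channel genes 2 rose and 2 fell, beside 10.9% and 13.1% of all genes, and the rises became 4 without either trametinib library and the falls 1 without either combination library, either panobinostat library or either vehicle library. KCNJ13, an inward rectifier, was the largest rise among genes named by the rule, with 110.0 and 113 in the combination, against 3.06 and 0 with panobinostat (5.80 ± 0.88, adjusted p = 0.00128). Its 3 reads over both panobinostat libraries give a ratio of 73.1 (95% counting interval 24.6 to 358).

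Several further genes stood at the ends of the ranking. DIO2, the deiodinase that activates thyroid hormone, had 1767 and 1891 in the combination, against 49.95 and 52.4 with panobinostat (5.13 ± 0.61, adjusted p = 0.000304). SEPP1, a secreted selenoprotein, had 338 and 330.1 in the combination, against 10.2 and 27.2 with panobinostat (4.24 ± 0.72, adjusted p = 0.00238). ZNF536, a zinc finger gene, had 208 and 117 in the combination, against 4.08 and 11.1 with panobinostat (4.33 ± 0.56, adjusted p = 0.00052), and TRPM8, the cold-sensing cation channel, had 169.8 and 164 in the combination, against 0 and 13.1 with panobinostat (5.48 ± 1.10, adjusted p = 0.00613), with an adjusted p of 0.0641 without combination replicate 2. These rises all began from low panobinostat levels. RASGEF1B had 51.5 and 68.5 in the combination, against 2.04 and 0 with panobinostat, a ratio of 58.1 (95% counting interval 15.6 to 487), and its adjusted p was 0.192 without combination replicate 2. C5orf46 had 65.6 and 34.99 in the combination, against 2.04 and 0 with panobinostat, a ratio of 51.6 (13.8 to 433), with an adjusted p of 0.128 without combination replicate 1, and SFRP4, a secreted antagonist of WNT ligands, had 48.00 and 71.5 in the combination, against 4.08 and 0 with panobinostat, a ratio of 28.7 (10.8 to 108), with an adjusted p of 0.239 without combination replicate 2. The ubiquitin-like gene UBD had 36.3 and 69.98 in the combination, against 0 and 4.03 with panobinostat, and its adjusted p was 0.0811 without combination replicate 2. At the other end, GJB1, a gap junction protein, was at 0 in both combination libraries, against 154 and 120.0 with panobinostat, at least 33.9-fold lower. SH3TC2 had 7.02 and 7.61 in the combination, against 485 and 448 with panobinostat (-5.81 ± 0.47, adjusted p = 2.76e-05). PDK4, the kinase that shuts pyruvate dehydrogenase, had 1.17 and 0 in the combination, against 92.8 and 70.6 with panobinostat, a ratio of 123 towards panobinostat (21.8 to 4902). These 3 genes were also low with trametinib, where GJB1 and PDK4 were at 0 in both libraries and SH3TC2 had 0 and 1.00.

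Most changes had the same direction with and without panobinostat. Of the 1451 genes higher in the combination than with panobinostat, 1109 (76.4%) were also higher with trametinib than in vehicle, and of the 1740 lower genes 1354 (77.8%) were also lower. These comparisons share no library. In trametinib against vehicle 51.0% of tested genes passed, 3153 higher and 3644 lower, and across the 13320 genes the log2 changes correlated at Pearson's r = 0.566 and Spearman's rho = 0.562, a description over genes, which are not independent. The median size of the log2 change was 0.36 beside panobinostat and 0.65 without it. The interaction passed for 1361 genes in the higher direction (10.2%) and 1204 in the lower (9.04%), or 1044 and 1777 after median centring. Single-library omissions gave 617 higher genes without vehicle replicate 1 and 3690 without trametinib replicate 1, and 690 lower genes without panobinostat replicate 1 and 2525 without trametinib replicate 1. The vehicle and trametinib libraries are labelled separately from the other 4, with a genome build named for the vehicle and trametinib libraries only. Any difference in processing and the presence of panobinostat therefore cannot be told apart in the interaction. The same holds where levels are set directly between the vehicle or trametinib libraries and the other 4.

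**Figure D5:**
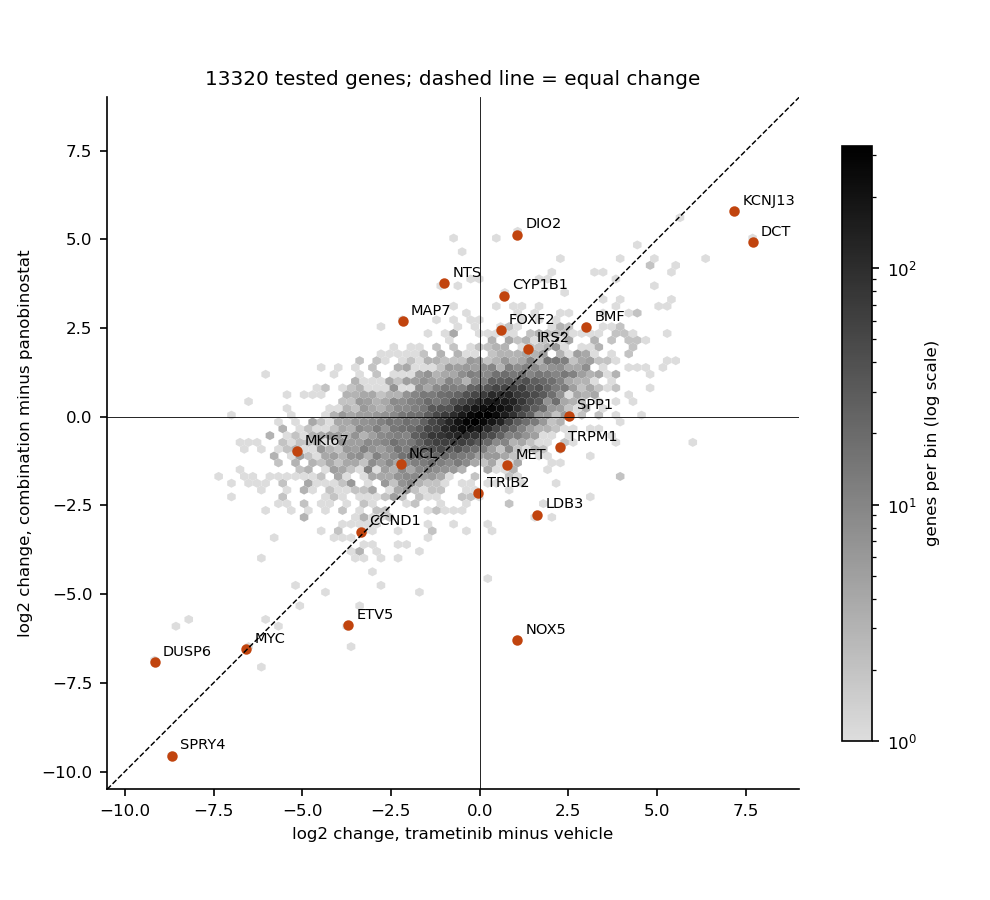
Log2 change in the combination against panobinostat (vertical axis) and with trametinib against vehicle (horizontal axis) for the 13320 tested genes, binned in grey by number of genes on a log scale, with named genes in orange and a dashed line where the changes are equal. CCND1 and MYC lie on the line, MKI67 at -0.96 and -5.16 lies above it, and NOX5 and MET lie below it.

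Proliferation genes gave many positive interactions. The interaction was positive and passed for 32 of 35 mitosis genes, 20 of 22 replication-dependent histone genes and 25 of 35 DNA replication genes, beside 10.2% of all genes. The count of replication genes became 9 without vehicle replicate 2, 11 without vehicle replicate 1, 12 without panobinostat replicate 1, 14 without combination replicate 1 and 15 without panobinostat replicate 2. MKI67 had 54.2 and 56.3 with trametinib, against 2106 and 1906 in vehicle (-5.16 ± 0.12, adjusted p = 1.08e-08), a far deeper fall than beside panobinostat, and an interaction of 4.19 ± 0.18, adjusted p = 3.46e-06. MCM3 had 379 and 379.8 with trametinib, against 2647 and 2859.6 in vehicle, with an interaction of 1.16 ± 0.14, adjusted p = 0.000446. CCNB1, the cyclin of mitotic entry, had 399 and 345 in the combination, against 705 and 771 with panobinostat, and without panobinostat 132 and 159 with trametinib, against 1558 and 1492 in vehicle, an interaction of 2.40 ± 0.19, adjusted p = 6.52e-05. In each of these genes the panobinostat libraries were already below the vehicle libraries, which are labelled separately from them. HIST1H1E, level beside panobinostat, had 2948 and 2468 with trametinib, against 12709 and 12253 in vehicle without it, an interaction of 2.25 ± 0.12, adjusted p = 7.28e-06. For nucleolar genes, by comparison, 6 of 32 interactions passed, a count that became 3 without either panobinostat library or either vehicle library, 11 without trametinib replicate 2 and 14 without trametinib replicate 1.

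Some genes changed beside panobinostat and not, or in the other direction, without it, by a grouping made after the values were seen. A total of 83 genes were higher in the combination than with panobinostat, did not pass with trametinib against vehicle and had a positive interaction. DIO2 had 41.1 and 232 with trametinib, against 42.7 and 51.5 in vehicle without panobinostat, and its interaction was 4.08 ± 0.86, adjusted p = 0.0102, with an adjusted p of 0.0678 without combination replicate 2. CYP1B1, a cytochrome that oxidises oestrogens and polycyclic hydrocarbons, had 2176 and 1952 in the combination, against 180.4 and 205 with panobinostat, and 155 and 317 with trametinib, against 166 and 115 in vehicle (interaction 2.73 ± 0.43, adjusted p = 0.00214). HIP1R, an endocytic adaptor, had 3471 and 3887 in the combination, against 1294 and 1254 with panobinostat, and 499 and 623 with trametinib, against 628 and 648 in vehicle (interaction 1.72 ± 0.16, adjusted p = 0.000125). The transcription factor CEBPD had 487 and 522 in the combination, against 82.6 and 103 with panobinostat, and 214 and 222 with trametinib, against 199 and 187 in vehicle (interaction 2.26 ± 0.26, adjusted p = 0.000421). In all 4 the combination exceeded every other group, a pattern that the grouping itself partly sets.

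A further 59 genes rose beside panobinostat and fell without it. NFKBIZ, a nuclear regulator of NF-kappaB, had 2786 and 2436 in the combination, against 1088 and 1204 with panobinostat, and 366 and 344 with trametinib, against 837 and 807 in vehicle (interaction 2.40 ± 0.14, adjusted p = 1.21e-05). JPH1, a protein of membrane junctions, had 1514 and 1495 in the combination, against 636 and 569.7 with panobinostat, and 178 and 138 with trametinib, against 581 and 564 in vehicle (interaction 3.19 ± 0.20, adjusted p = 1.43e-05). In the other direction 100 genes fell beside panobinostat, did not pass without it and had a negative interaction. SPOCK1, a matrix proteoglycan, had 799.6 and 823 in the combination, against 3553 and 3412 with panobinostat, and 704 and 836 with trametinib, against 799.9 and 784 in vehicle (interaction -2.05 ± 0.14, adjusted p = 2.1e-05). PVT1, the long non-coding RNA next to MYC, had 299 and 268 in the combination, against 885 and 1035 with panobinostat, and 415 and 397 with trametinib, against 489 and 483 in vehicle (interaction -1.496 ± 0.18, adjusted p = 0.000489). NOX5, an oxidase that produces superoxide, was at 0 in both combination libraries, against 70.3 and 84.7 with panobinostat, at least 19.2-fold lower, and had 0 and 25.1 with trametinib, against 2.41 and 0.792 in vehicle. Its call was lost in omissions, with an adjusted p of 0.142 without panobinostat replicate 2. Last, 77 genes fell beside panobinostat and rose without it, MET among them, and FLOT1, a membrane raft protein, had 1298 and 1114 in the combination, against 2690.2 and 2724 with panobinostat, and 1636 and 1616 with trametinib, against 1359.6 and 1331 in vehicle (interaction -1.44 ± 0.12, adjusted p = 7.13e-05).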

How the data were processed

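The deposited table holds 1 normalised signal value per gene symbol and library for 18406 symbols and 8 libraries, and the values were made by the authors. Cufflinks 2.2.1, TopHat2 2.0.13 and DESeq2 (no version named) were used, per the submitters' processing notes, and per the labels' protocols the libraries were made with a NuGEN Ovation FFPE kit, designed for RNA of fixed tissue. No source used here gives the strand setting of the counting, and a genome build is named for the vehicle and trametinib libraries. Every value was a whole number of reads divided by a factor of its library (100% of values within 1e-06), so reads were recovered for depths, floors and count tests. A floor is 3 reads per library, and intervals (95%, exact) and floors cover counting error, since no molecular identifiers are described.

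Log2(value + 1) of genes with a mean of at least 10 was fitted with limma 3.58.1 in R 4.3.3, with 8 libraries, 4 groups and an intensity trend, and fold changes on this scale understate the change of low genes. The tests were two-sided with Benjamini-Hochberg adjustment over all 13320 genes tested, and genes passed at an adjusted p under 0.05. The interaction is the change in the combination against panobinostat minus that with trametinib against vehicle. Group names follow the labels. The spread had 4 residual degrees of freedom. The steps of the fit were run on simulated counts with known changes in the combination. The simulated libraries shared 1 spread per gene and lacked the many zeros of trametinib replicate 2. That run therefore checks the steps and not the calls made here.

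The genes and the 37 lists were chosen with earlier results of these data known. The naming rule took the 10 largest rises and 10 largest falls among passing genes whose higher group averaged 50 or more, with no overlap between libraries. Clone, LOC, LINC, small RNA, antisense and ribosomal protein symbols were left out there and among the interactions. The 5 largest passing interactions in each direction needed a mean of 50 or more in the highest group. They also needed no overlap between combination and panobinostat libraries or between trametinib and vehicle libraries. Up to 4 passing members per list with the smallest adjusted p were taken whatever their level, overlap or symbol. A fixed set was given whatever its values. Other genes named were chosen after their values were seen. Alternatives were edgeR 4.0.16 and DESeq2 1.42.0 on the recovered reads, other pseudocounts, filters and scalings, array weights, a replicate block and leaving out libraries. Promoters are RefSeq sequence of GRCh38.p14, used for their letters and not matched to the build of the reads.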

Additional observations from a re-analysis of the deposited data

Results flagged for a closer look

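The change with trametinib differed between the libraries with and without panobinostat, by the interaction in limma's fit. The interaction passed for 1361 genes in the higher and 1204 in the lower direction, counts that moved with single-library omissions. The presence of panobinostat and any difference in processing cannot be told apart in it. Among genes averaging 50 or more in their highest group, the largest positive interactions named by the rule were those of HIST1H4C (7.09, or 4.44 without trametinib replicate 2), CDC25C (6.90), FAM173A (6.07, or 5.27), KIF20B (6.05, or 3.97) and CNKSR2 (5.87). In trametinib replicate 2 these genes had values between 0 and 1.00, and trametinib replicate 1 had up to 38.1 (HIST1H4C). HIST1H4C had 108 and 132 in the combination, against 129 and 98.8 with panobinostat, and 38.1 and 0 with trametinib, against 846 and 766 in vehicle. KIF20B had 173 and 207 in the combination, against 280.3 and 347 with panobinostat, and 35.1 and 1.00 with trametinib, against 961 and 896 in vehicle. CDC25C and CNKSR2 were at 0 in both trametinib libraries, so their interactions depend on the pseudocount and are no measure of size.

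The largest negative interactions were those of NOX5 (-7.34, or -4.98 without trametinib replicate 2), ADAMTS14 (-6.80, or -6.58), ZNF469 (-5.70, or -5.30), NTRK2 (-4.46) and LDB3 (-4.38, or -4.22). NOX5 was at 0 in both combination libraries, so its interaction too depends on the pseudocount and its place among these genes is no measure of size. ADAMTS14, a procollagen peptidase, had 1.17 and 7.61 in the combination, against 9.17 and 4.03 with panobinostat, and 227 and 310.4 with trametinib, against 3.61 and 2.38 in vehicle. NTRK2, the neurotrophin receptor TRKB, had 4.68 and 31.9 in the combination, against 19.4 and 23.2 with panobinostat, and 209.6 and 199 with trametinib, against 13.2 and 15.04 in vehicle. LDB3 had 4.68 and 4.56 in the combination, against 37.7 and 36.3 with panobinostat, and 94.3 and 118 with trametinib, against 35.5 and 31.7 in vehicle. In ADAMTS14, NTRK2 and LDB3 the trametinib libraries stood above every other group, which picking them by their interaction partly sets.

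Interactions passed for the ERK readout genes DUSP6 (2.25) and ETV5 (-2.17, or -1.69 without trametinib replicate 2), for SH3TC2 (2.80, or 3.30) and for MAP2K2 (0.72, or 0.85). Among melanocyte genes they passed for DCT (-2.78), MITF (-1.34), TYR (-1.10) and MLANA (-0.81). Among cell cycle genes they passed for MKI67 (4.19), E2F1 (2.84, or 2.66), MCM3 (1.16) and CDKN1A (0.91, or 1.02). The others were DIO2 (4.08, or 5.32), MET (-2.15), ERBB3 (-1.39), YAP1 (0.78), IRS2 (0.55) and BMF (-0.47). As given above, the interactions of DUSP6, DCT, DIO2 and BMF lost their calls in single-library omissions.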

How the results depend on the processing

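The direction of change was kept for the named genes by every alternative other than single-library omissions. Among 182 named genes tested, 164 passed, and 128 of these passed in all 8 omissions while 36 lost their call in at least 1. In the interaction 102 named genes passed and 67 of them passed in all 8. Signs turned round in 8 cases, for genes that did not pass in the omission: HIST1H4C had a log2 change of -0.07 without combination replicate 2 and -0.12 without panobinostat replicate 2, ADAMTS14 0.27, NTRK2 0.57 and GNAQ 0.0087 without combination replicate 1, MCL1 0.0055 without panobinostat replicate 1, and HDAC1 0.057 without combination replicate 2 and 0.025 without panobinostat replicate 2. Single omissions gave log2 changes up to 0.27 for HIST1H4C and down to -1.72 for ADAMTS14, -1.97 for NTRK2, -0.097 for MCL1, -0.13 for HDAC1 and -0.064 for GNAQ. The cause was not tested.

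Counts of genes that passed moved with the libraries that set the spread. Array weights gave 2371 higher and 2701 lower genes, the 4 libraries of the comparison alone 2602 and 2741 with 680 higher by at least 2-fold, and leaving out both trametinib libraries, added after the data were seen, 2730 and 3018 with 684. Interactions numbered 862 higher and 738 lower without the intensity trend, and 1044 and 1777 with median centring. Single omissions gave 714 to 2758 higher and 929 to 2989 lower genes, 252 to 688 higher and 403 to 774 lower by at least 2-fold, and interactions of 617 to 3690 higher and 690 to 2525 lower. On reads edgeR gave 1407 higher and 1833 lower genes and interactions of 1366 and 1381, and DESeq2 gave 1858 and 2155, and 1847 and 1701. No effect shared by replicate number was visible, since deviations correlated between -0.0235 and 0.0218. This does not show whether the libraries were prepared in pairs. The fit with a replicate block gave 1368 higher and 1659 lower genes and interactions of 1296 and 1122. With 2 libraries a group and 6897784 reads in the shallowest, changes of low genes are bounded by the floor.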
